A study of Mus musculus with 16 samples.

Results

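Maturation of the Mef2c-het hippocampus was read from 8 arrays, 4 from Mef2c-het mice at postnatal day (P) 1 and 4 from Mef2c-het mice at P30, out of 16 arrays in the series. The members were chosen by the labels alone, which call these mice KO. The other 8 arrays, 4 at each age, came from WT mice and were used here only to ask whether the change with age differed between the genotypes. The study's methods describe Mef2c-het mice as carrying 1 conventional allele of Mef2c with exon 2 deleted, in every tissue, on a C57BL/6J background with WT littermates as controls, so that both ages of the compared group share the same heterozygous deletion and neither received a drug. Total RNA of the whole hippocampus was labelled with biotin and hybridised to MouseRef-8 v2 arrays of Illumina, which read the level of a transcript as the mean brightness of the beads that carry its probe. The labels give a replicate number for each array but no sex, litter or chip. The replicate numbers are 1, 2, 4 and 8 at P1 and 3, 5, 6 and 7 at P30, so no number is shared between the ages. If the arrays were not from separate animals, the p-values would measure technical spread alone.

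MEF2C is a transcription factor of the MADS box family that is abundant in forebrain neurons, where it acts on synapse number and on genes that respond to activity. It is held in check by class IIa histone deacetylases. In the mouse, the hippocampus at P1 still produces granule neurons of the dentate gyrus and extends axons and dendrites. By P30 most of its synapses have formed, inhibitory interneurons have taken on their adult markers, and oligodendrocytes are wrapping axons in myelin. The whole-tissue RNA compared here mixes all of these cells, and fewer cells of a type cannot be told apart from less RNA per cell.

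The age of the mice set the main axis of variation on the 8 arrays. Between 12830 and 14150 probes per array had a detection p under 0.05 against negative control beads. Log2 signals of all probes before normalisation correlated at 0.988 to 0.995 among the P1 arrays, at 0.985 to 0.996 among the P30 arrays and at 0.926 to 0.943 between the ages. Principal components were taken from the tested probes after quantile normalisation over the 8 arrays. The first held 84.6% of the variance and separated the ages. The second held 9.21% and set P1 replicate 8 and P30 replicate 7 apart from the other 6 arrays. These 2 arrays had the highest background, with a 5th percentile of raw signal of 161.4 and 153.6 against 107.5 to 130.8 on the others. Xist, the transcript of the inactive X chromosome, was at 8.51 and 8.30 on P1 replicates 1 and 4, and between 7.03 and 7.16 on the other 6 arrays, where the Y-linked genes were high. Sex was thus mixed at P1 and male alone at P30. Results were also computed with sex as a covariate and without the 2 arrays of higher background. With sex as a covariate, the P1 side of the age change rests on the male P1 replicates 2 and 8 alone. A call lost in that fit can therefore not be assigned to sex, since fewer arrays carry the comparison.

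Mef2c itself was measured by 2 probes that passed the filter, and neither was called as changed with age in the Mef2c-het arrays. The probe ILMN_2887992 read 8.18, 8.43, 8.40 and 8.78 on P1 replicates 1, 2, 4 and 8, and 8.15, 8.41, 8.15 and 8.94 on P30 replicates 3, 5, 6 and 7. The ages overlapped fully, with a log2 fold change of -0.03 (SE 0.18, limma adjusted p = 0.887) and a two-sided exact permutation p of 0.8, where 0.0286 is the smallest that 4 against 4 arrays allow. On the WT arrays the same probe went from 8.40 ± 0.09 to 8.72 ± 0.17 (SD, n = 4), a log2 fold change of 0.33 with an exact permutation p of 0.0286 (limma adjusted p = 0.0106). The test of the difference between those changes gave -0.36 (SE 0.22) with a limma adjusted p of 0.998 and an unadjusted p of 0.12 across the 16 arrays. The probe ILMN_2732465 gave a log2 fold change of -0.05 (SE 0.21) in the Mef2c-het arrays, with an exact permutation p of 0.914. On the WT arrays it gave 0.19 with an exact permutation p of 0.0571 (limma adjusted p = 0.0531), and the difference between the genotypes was -0.24 (SE 0.24, unadjusted p = 0.332 by limma). On both tested probes the highest Mef2c-het value at each age came from an array of higher background, P1 replicate 8 and P30 replicate 7. For ILMN_2732465 these values were 9.73 and 9.92. The part of the background in the spread was not tested. A further probe, ILMN_1214950, was detected on 1 of the 8 arrays and was not tested. Where these probes lie relative to the deleted exon is not given in the deposited table, so they do not check the genotype labels.

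Of 13749 probes tested, 8206 (59.7%) passed a limma adjusted p of 0.05. The P30 signal was higher for 3761 probes (27.4%) and lower for 4445 (32.3%). A change of 2-fold or more was found for 925 probes upward (6.73%) and 756 downward (5.5%). The 2 ages did not overlap for 7543 probes (54.9%). With 1 probe for each of 10138 genes, the one with the highest mean signal, 6312 genes were called (62.3%), 2869 higher (28.3%) and 3443 lower (34.0%), with 763 (7.53%) and 633 (6.24%) past 2-fold, and the median log2 fold change over all genes was -0.03. A list of genes therefore has to be read against a background in which 62.3% of all genes passed. All fold changes below are P30 over P1 on the log2 scale of normalised signal, and those of probes near background understate the change in RNA.

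Of the 10 genes with the largest rise 6 were on the list of oligodendrocyte and myelin genes, and of the 10 with the largest fall 3 were on that of immature neurons. Mbp, which encodes myelin basic protein, read between 7.69 and 8.30 at P1 and between 14.82 and 14.97 at P30, a 113-fold rise (log2 fold change 6.82, SE 0.12). Mag, an adhesion protein of the inner myelin sheath, rose by 5.73. Among neuronal genes, Rasgrf1, an imprinted exchange factor for Ras, rose by 5.29, Cpne6, a calcium-binding protein of dendritic spines, by 5.0 and C1ql2, a secreted synaptic protein of dentate granule cells, by 4.98. Dcx, the microtubule protein of migrating neurons, read 13.07, 13.45, 13.16 and 13.32 at P1 and 8.59, 8.67, 8.71 and 8.63 at P30, a 24.2-fold fall (log2 fold change -4.60, SE 0.09). Igfbpl1, a marker of neuronal precursors in the dentate gyrus, fell by 4.36, Dpysl5 and Dpysl3, which bind tubulin in growth cones, changed by -4.06 and -3.73, and St8sia2, which adds polysialic acid to NCAM, fell by 3.66. Pafah1b3, a catalytic subunit of platelet-activating factor acetylhydrolase, fell by 3.70 and Cxadr, an adhesion protein, by 3.26. The lamin gene Lmnb1 fell by 3.42 on the probe used and did so on 1 of its 2 probes. Akr1c19, a ketosteroid reductase gene, was not detected on any P30 array and was at least 8.39-fold lower. Such bounds set the mean of the age that detected the probe against, on each array of the other age, the lowest detected signal or the probe's own signal, whichever was higher.

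**Figure D1:**
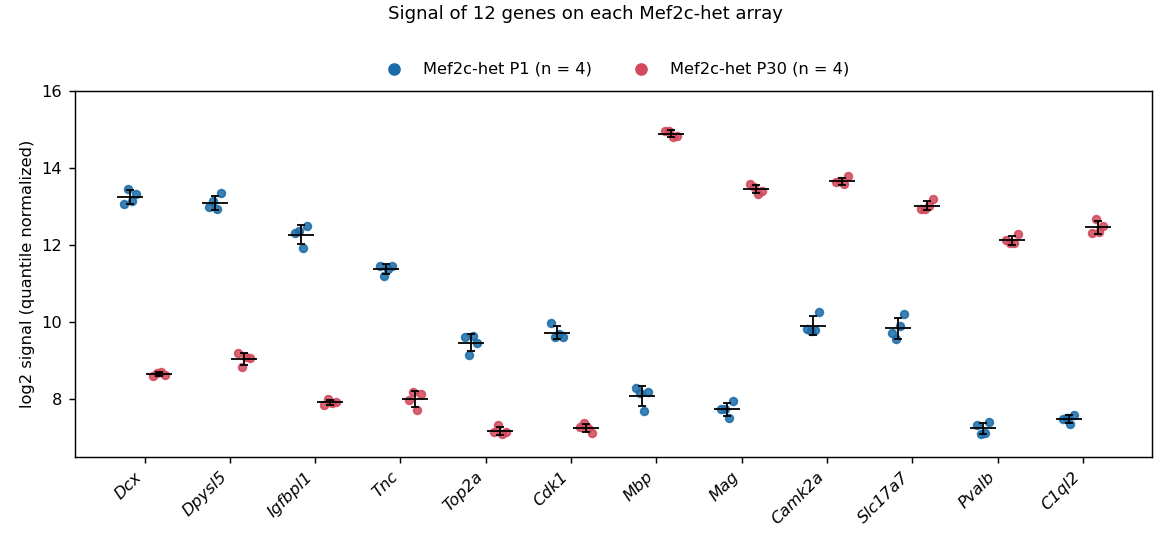
Log2 signal (quantile normalised) of 12 genes on each Mef2c-het array, with points for arrays and the mean and SD of 4 arrays for each age. The 6 genes on the left, Dcx to Cdk1, lie higher at P1 (blue) and the 6 on the right, Mbp to C1ql2, lie higher at P30 (red), and for none of the 12 do the ages overlap.

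Genes of the cell cycle fell together. Of 40 genes on that list 31 passed the filter, of which 28 were lower at P30, 2 were higher and 1 was not called, with a median log2 fold change of -1.31. Many of them passed the filter through the P1 arrays, since 9 were not detected on any P30 array. Of the 15 detected on all 8 arrays, 12 were lower and 2 higher. Prc1, which bundles the microtubules of the central spindle, read 11.06, 10.77, 10.73 and 10.80 at P1 and 7.88, 7.89, 7.90 and 7.95 at P30. This was a log2 fold change of -2.93 (SE 0.08) with a gap of over 2 units between the ages. Cenpa, the histone H3 variant of centromeres, fell by 2.56. Mcm5, a subunit of the replicative helicase, fell by 2.17. Cdk1, the kinase that drives entry into mitosis, and Top2a, which untangles replicated DNA, fell by 2.47 and 2.29, and each was detected on 1 of 4 P30 arrays. Ccnb1, the cyclin that activates Cdk1, was not detected at P30 and was at least 3.76-fold lower. The same held for Nusap1, of the mitotic spindle, at 3.5-fold or more and for Tk1, the thymidine kinase of S phase, at 2.99-fold or more. Cdc20, which activates the anaphase-promoting complex, fell by 2.21. The 2 genes that were higher were those of G1 cyclins, Ccnd1 by 0.33 and Ccne1 by 0.23, and 2 of the 3 Ccnd1 probes gave that call. The ages overlapped for Ccne1, and its call was lost with sex as a covariate, at an adjusted p of 0.186. Pcna, the sliding clamp of DNA polymerase, gave -0.30 with an adjusted p of 0.072. Without the 2 arrays of higher background, a probe had to be detected on 4 of 6 arrays, which genes silent at P30 could not reach, and 20 members were lower.

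The promoters of cell cycle genes are known for CCAAT boxes, bound by NF-Y, for E2F sites and for the CHR element TTTGAA, which the DREAM complex binds to silence them in resting cells. The windows of 4 members that fell are shown for these elements, each from 250 bases before to 50 bases after the RefSeq start of the gene on its own strand, in build GRCm38.p6. Capitals mark these letters wherever they occur on either strand, so that a box on the other strand appears as its reverse complement, and the E2F words searched were TTTCCCGC and TTTGGCGC. The windows are Prc1 at chr7:80294201-80294500 (plus strand), Cdk1 at chr10:69352863-69353162 (minus strand), Mcm5 at chr8:75109259-75109558 (plus strand) and Cenpa at chr5:30666636-30666935 (plus strand).
Prc1: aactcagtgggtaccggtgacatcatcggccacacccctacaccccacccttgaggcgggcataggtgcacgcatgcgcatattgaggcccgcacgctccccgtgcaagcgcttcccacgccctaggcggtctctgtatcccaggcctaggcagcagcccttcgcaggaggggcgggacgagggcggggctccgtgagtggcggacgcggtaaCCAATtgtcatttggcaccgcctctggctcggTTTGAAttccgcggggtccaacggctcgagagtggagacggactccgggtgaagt
Cdk1: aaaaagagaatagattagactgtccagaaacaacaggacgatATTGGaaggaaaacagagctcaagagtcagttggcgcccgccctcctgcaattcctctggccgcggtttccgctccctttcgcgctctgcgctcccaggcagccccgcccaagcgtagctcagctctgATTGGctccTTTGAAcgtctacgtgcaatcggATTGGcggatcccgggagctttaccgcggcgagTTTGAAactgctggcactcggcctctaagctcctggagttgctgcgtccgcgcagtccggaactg
Mcm5: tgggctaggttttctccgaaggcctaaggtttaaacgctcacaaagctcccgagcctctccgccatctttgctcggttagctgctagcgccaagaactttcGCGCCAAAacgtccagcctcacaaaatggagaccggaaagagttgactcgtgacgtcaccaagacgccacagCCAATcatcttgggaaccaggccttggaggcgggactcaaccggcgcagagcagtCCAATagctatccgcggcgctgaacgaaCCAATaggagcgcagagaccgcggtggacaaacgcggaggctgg
Cenpa: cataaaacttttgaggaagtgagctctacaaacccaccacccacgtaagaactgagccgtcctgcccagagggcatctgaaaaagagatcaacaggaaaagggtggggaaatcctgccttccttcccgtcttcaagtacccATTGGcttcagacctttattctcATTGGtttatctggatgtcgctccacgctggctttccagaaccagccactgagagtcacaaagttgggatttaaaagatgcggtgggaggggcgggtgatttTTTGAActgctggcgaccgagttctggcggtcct
Cdk1 held CCAAT at 3 places and TTTGAA at 2, Prc1 held each at 1 place, Cenpa held CCAAT at 2 places and TTTGAA at 1, and Mcm5 held CCAAT at 3 places with 1 E2F word and no TTTGAA. Among the 26 cell cycle genes tested that had a window, 19 (73.1%) held CCAAT, 13 (50%) held TTTGAA and 5 (19.2%) an E2F word. Among the windows of all 8047 tested genes that had one, the shares were 38.8%, 11.4% and 2.73%, and among all 27025 windows 37.9%, 18.1% and 1.63%. These are matches of letters, not measured binding.

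Factors of neural progenitors and of neuronal differentiation fell as well. Of 36 genes on that list 26 were tested, 21 were lower, 1 was higher and 4 were not called, with a median of -0.76. Of the 19 detected on all 8 arrays, 15 were lower. Insm1, a zinc finger factor of dividing neuronal precursors, fell by 2.83. Vim and Nes, which encode intermediate filaments of radial glia, had log2 fold changes of -2.75 and -2.58. Hes6, a factor that favours differentiation, fell by 2.15. The neurogenic factor Neurod1 fell by less, 0.82, and its ages overlapped. The call was lost with sex as a covariate, at an adjusted p of 0.184. Prox1, which keeps dentate granule cells in their fate throughout life, fell by 0.81 and read between 9.26 and 9.43 at P30. Hes1, a target of Notch that keeps progenitors undifferentiated and is also made by glia, was the gene that rose, by 0.52.

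Proteins that build growing axons and migrating neurons showed the same direction with a few exceptions. Of 32 genes on the list 28 were tested, and 20 were lower and 3 higher, with a median of -1.1. Of the 23 detected on all 8 arrays, 19 were lower. Besides Dcx and the Dpysl genes described above, Draxin, a repellent of commissural axons, was not detected at P30 and was at least 5.93-fold lower. Marcksl1, an actin regulator, fell by 2.36, Crmp1 by 1.93 and Mapt, the microtubule protein tau, by 1.69. Stmn1, which destabilises microtubules, read 11.79, 12.07, 11.87 and 10.06 at P1 and 9.56, 9.78, 9.55 and 7.93 at P30. The low value at each age came from an array of higher background, P1 replicate 8 and P30 replicate 7, and the log2 fold change was -2.24 (SE 0.50). Gap43, a growth cone protein, was low on the same 2 arrays and fell by 1.59 (SE 0.31). The exceptions were Ncam1, the neural cell adhesion molecule, which rose by 1.90, Dclk1, a relative of Dcx, which rose by 0.81, and the guidance cue Slit1, which rose by 0.41.

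**Figure D2:**
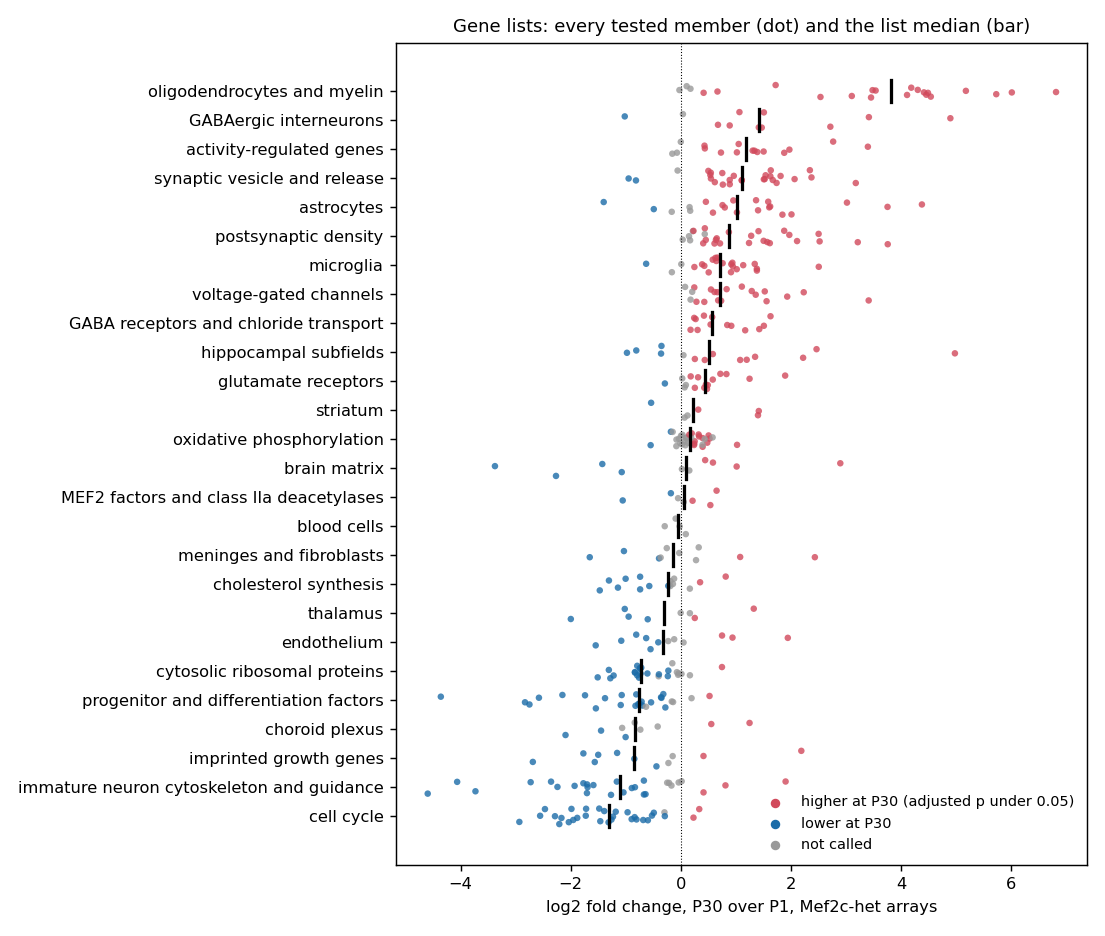
Log2 fold change, P30 over P1, of every tested member of 26 gene lists (dots, red where higher and blue where lower at an adjusted p under 0.05, grey where not called) with the median of each list as a black bar. The lists run from cell cycle genes, with a median of -1.31, at the bottom to oligodendrocyte and myelin genes, with a median of 3.83, at the top.

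The machinery of transmitter release rose. Of 35 genes on the list 27 were tested, 24 were higher and 2 lower, with a median of 1.11, and 23 of the 26 detected on all 8 arrays were higher. Slc17a7, the vesicular glutamate transporter VGLUT1, read 9.71, 9.57, 9.89 and 10.20 at P1 and 12.95, 12.95, 13.01 and 13.19 at P30, a 9.06-fold rise (log2 fold change 3.18, SE 0.13). Every P30 array was at least 2 units above every P1 array. Sv2b, a vesicle glycoprotein, rose by 2.37, Nsf, the ATPase that takes SNARE complexes apart, by 2.34 and Syt1, the calcium sensor of fast release, by 2.07. Syp, encoding synaptophysin, rose by 1.52 from a signal that was already 12.98 ± 0.12 (SD, n = 4) at P1. Slc32a1, the vesicular GABA transporter VGAT, rose by 0.89. The transporter VGLUT2, encoded by Slc17a6 and used by young and subcortical glutamate neurons, fell by 0.95, and Rims3, a small protein of the active zone, fell by 0.82. Vamp1 rose by 1.81 on the probe used, a call given by 2 of its 4 probes.

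On the postsynaptic side, 27 of 34 listed genes were tested, 22 were higher and none was lower, with a median of 0.87. Of the 25 detected on all 8 arrays, 21 were higher. Camk2a, the kinase that is needed for long-term potentiation, read 9.81, 9.76, 9.78 and 10.27 at P1 and 13.63, 13.66, 13.58 and 13.79 at P30, a 13.5-fold rise (log2 fold change 3.76, SE 0.11). Its sister subunit Camk2b rose by 0.65. Icam5, an adhesion protein of forebrain dendrites, rose by 3.21 and Nrgn, which releases calmodulin near the synapse, by 2.50. Cnksr2, a scaffold of Ras signalling, rose by 2.11 and Dlg4, the scaffold PSD-95, by 1.57. The adhesion protein Nlgn1 gave 0.03 and the inhibitory scaffold Gphn 0.17, and neither passed.

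Receptors and channels rose by smaller amounts. Of 25 glutamate receptor genes 16 were tested, 12 were higher and 1 lower, with a median of 0.44. Gria1, a subunit of AMPA receptors, rose by 1.90 on all of its 3 probes, and Gria2, the subunit that blocks calcium entry, by 0.83. Cacng3, an auxiliary subunit of AMPA receptors, rose by 1.25. Grin1, the obligatory subunit of NMDA receptors, rose by 0.72 and was detected on 1 of 4 P1 arrays. Grin2b was not detected at P1 and was at least 1.08-fold higher at P30. Grik1, of kainate receptors, was the gene that fell, by 0.29. The calls of Grin2b and Grik1 were lost with sex as a covariate, at adjusted p-values of 0.0972 and 0.0617. Their log2 fold changes were 0.17 and -0.30 in that fit, beside 0.18 and -0.29 without the covariate. Among 13 tested genes of GABA receptors, GABA synthesis and chloride transport, 13 were higher, with a median of 0.57. They included Gad1, a GABA-synthesising enzyme, at 1.51, Abat, which degrades GABA, at 1.63 and Gabrd, the delta subunit of extrasynaptic receptors, at 1.43. Slc12a5, the chloride exporter KCC2, was not detected at P1 and was at least 1.25-fold higher, and Slc12a2, the chloride importer NKCC1, was 0.30 higher. Among 20 tested voltage-gated channel genes 17 were higher and none lower, with a median of 0.71. Kcnab2, an accessory subunit of Kv1 channels, rose by 3.41, the inward rectifier Kcnj4 by 2.23, Cacnb4 of calcium channels by 1.93, the pacemaker channel Hcn2 by 1.53 and the sodium channel Scn1a by 1.29. Scn4b, a beta subunit of sodium channels, rose by 1.56 and Kcna1, of axonal potassium channels, by 0.66. Cacnb4 was called on 1 of its 2 probes.

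Genes that neurons switch on with activity were higher at P30. Of 20 listed genes 16 were tested, 13 were higher and none was lower, with a median of 1.18. Arc, which acts on AMPA receptor traffic, read 7.62, 7.53, 7.68 and 7.68 at P1 and 10.95, 11.19, 11.12 and 10.84 at P30, a 10.5-fold rise (log2 fold change 3.40, SE 0.09). The ages were separated by over 3 units. The zinc finger genes Egr4 and Egr1 rose by 2.77 and 1.88, Junb by 1.97, Bdnf, a neurotrophin, by 1.39 and Fos by 1.31. Egr4 ranged from 9.21 to 10.79 at P30, with its lowest value on replicate 7. The 3 members Egr3, Nr4a2 and Dusp1, lay between -0.15 and 0.00 and did not pass.

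The MEF2 family and its partners among the class IIa deacetylases had a median change of 0.05. Of 8 genes 7 were tested, Mef2c included, with 3 higher and 2 lower. Mef2a was 0.21 higher on the probe used, a call given by 1 of its 2 probes, Mef2d gave 0.05 and was not called, and Mef2b, not detected at P30, was at least 1.05-fold lower. The calls of Mef2a and Mef2b were lost with sex as a covariate, at adjusted p-values of 0.0562 and 0.0957. Hdac4 read 8.58, 8.51, 8.74 and 8.87 at P1 and 9.22, 9.27, 9.32 and 9.49 at P30, a rise of 0.65 (SE 0.09). Hdac5 rose by 0.54 on all of its 3 probes. Hdac7, which is best known from blood vessels and lymphocytes, fell by 1.06.

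A MEF2 motif was sought in the same promoter windows, namely C or T, then TA, 4 letters that are each A or T, TA, and A or G. It was held by 3.26% of all windows and by 1.6% of those of tested genes. Among genes that rose 2-fold or more it was in 10 of 581 windows (1.72%), and among genes that fell 2-fold or more in 4 of 492 (0.813%). The share among genes that rose was close to that of all tested genes, so the motif does not mark the genes that rose. The 10 genes that rose and held the motif were led by Pvalb at 4.90 and Mal at 4.54. Rgs7bp at 2.77 and the glycolytic enzyme gene Pgam2 at 1.92 followed. The activity-regulated gene Jun was the lowest of the 10 at 1.05. The window of Pvalb, the gene of the calcium buffer parvalbumin, is shown as that of the largest rise with a match, at chr15:78206351-78206650 on the minus strand of GRCm38.p6, with the motif in capitals.
Pvalb: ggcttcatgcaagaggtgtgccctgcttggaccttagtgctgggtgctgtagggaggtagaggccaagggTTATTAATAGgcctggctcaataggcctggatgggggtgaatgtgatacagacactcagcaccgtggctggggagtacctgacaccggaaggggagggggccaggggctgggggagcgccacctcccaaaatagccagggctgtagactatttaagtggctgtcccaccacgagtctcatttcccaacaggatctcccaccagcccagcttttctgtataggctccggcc
No binding of MEF2C was measured here, and enhancers lie outside these windows.

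Matrix genes went in both directions. Of 14 genes 10 were tested, with 4 higher and 4 lower, beside 28.3% and 34.0% of all genes. Tnc, the tenascin of germinal zones, read between 11.21 and 11.47 at P1 and between 7.71 and 8.19 at P30, a 10.4-fold fall (log2 fold change -3.38, SE 0.11) that was called on all 4 of its probes. Reln, secreted by Cajal-Retzius cells and later by interneurons, fell by 2.27. Has2, a hyaluronan synthase, was not detected at P30 and was at least 2.26-fold lower. Hapln4, a link protein of perineuronal nets around mature neurons, rose by 2.90 and was detected on 1 of 4 P1 arrays. Hapln2, a link protein at nodes of Ranvier, was not detected at P1 and was at least 1.74-fold higher. Among the lecticans, Ncan, the proteoglycan of the young brain, fell by 1.07 and Bcan, that of the adult brain, rose by 0.44. The ages overlapped for Bcan, and its call was lost in 4 of 19 alternative fits.

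Imprinted growth genes were mostly lower. Of 20 genes 11 were tested, 7 were lower and 2 higher, with a median of -0.85. Cdkn1c, a cell cycle inhibitor expressed from the maternal allele, fell by 2.69, the proteolipid gene Nnat by 1.77, and H19, a noncoding RNA not detected at P30, was at least 2.55-fold lower. Igf2, a growth factor that meninges and choroid plexus also make, fell by 0.85 and stayed at 12.02 to 12.82 at P30. Impact, an inhibitor of the kinase GCN2, was the opposite case and rose by 2.19. Peg3 was not detected at P1 and was at least 1.25-fold higher, a call lost with sex as a covariate at an adjusted p of 0.0942. Dlk1, a ligand-like protein of the Notch family, fell by 0.44.

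Housekeeping pathways split. Of 25 cytosolic ribosomal protein genes tested, 17 were lower and 1 higher, with a median of -0.72. Rplp0, a protein of the ribosomal stalk, fell by 1.51, while Rpl27a rose by 0.75 on 1 of its 2 probes. Ribosomal protein genes have many near-identical pseudogene copies, and their probes may share signal. Of 15 cholesterol synthesis genes 8 were lower and 2 higher, with a median of -0.23. Fdps and Sqle, both early in the pathway, fell by 1.47 and 1.31, whereas Ebp and Sc5d, both late in it, rose by 0.82 and 0.35. The call of Sc5d was lost with sex as a covariate, at an adjusted p of 0.101. Of 32 genes of oxidative phosphorylation 13 were higher and 2 lower, with a median of 0.17, and 17 were not called. Cox8a, a subunit of cytochrome c oxidase, rose by 1.02 and Uqcrc1, of complex III, by 0.52, whereas Atp5o, of ATP synthase, fell by 0.55. The share of these genes called upward, 13 of 32, stood beside 28.3% of all genes.

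Myelin genes had the largest median rise of the 26 lists. Of 28 oligodendrocyte genes 22 were tested, 19 were higher and none lower, with a median of 3.83, and the summed signal of the list went from 13941 to 18054 on the P1 arrays to 140395 to 159743 at P30. Of the 16 detected on all 8 arrays, 14 were higher. Cldn11, the tight junction protein of myelin, read 10.72, 9.54, 10.14 and 10.35 at P1 and 14.71, 14.71, 14.68 and 14.60 at P30, a rise of 4.49 (SE 0.20). Another 4 genes were not detected on any P1 array. Of these Mobp, a basic protein of myelin, was at least 30.2-fold higher at P30, Fa2h, which hydroxylates myelin lipids, at least 19.2-fold, Opalin at least 19.1-fold and Mog, on the outer face of myelin, at least 15.9-fold. Cnp, an early myelin enzyme, rose by 4.11 and Ugt8a, which makes galactocerebroside, by 3.54. Bcas1, a marker of oligodendrocytes that are starting to myelinate, rose by 4.31, the tetraspanin gene Tspan2 by 3.48 and Trf, the iron carrier transferrin, by 3.11. Mal, a proteolipid of compact myelin, rose by 4.54 (SE 0.36) and read 11.92, 12.30 and 12.20 on 3 P30 arrays and 10.36 on replicate 7. Genes of oligodendrocyte precursors stood apart from these. Pdgfra, the growth factor receptor of precursors, gave 0.18 with an adjusted p of 0.286, the proteoglycan gene Cspg4 gave -0.03, the lineage factor Olig2 gave 0.11, and Olig1 rose by 0.67. Without the 2 arrays of higher background 15 members were higher, since the 4 genes not detected at P1 could no longer pass the filter.

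**Figure D3:**
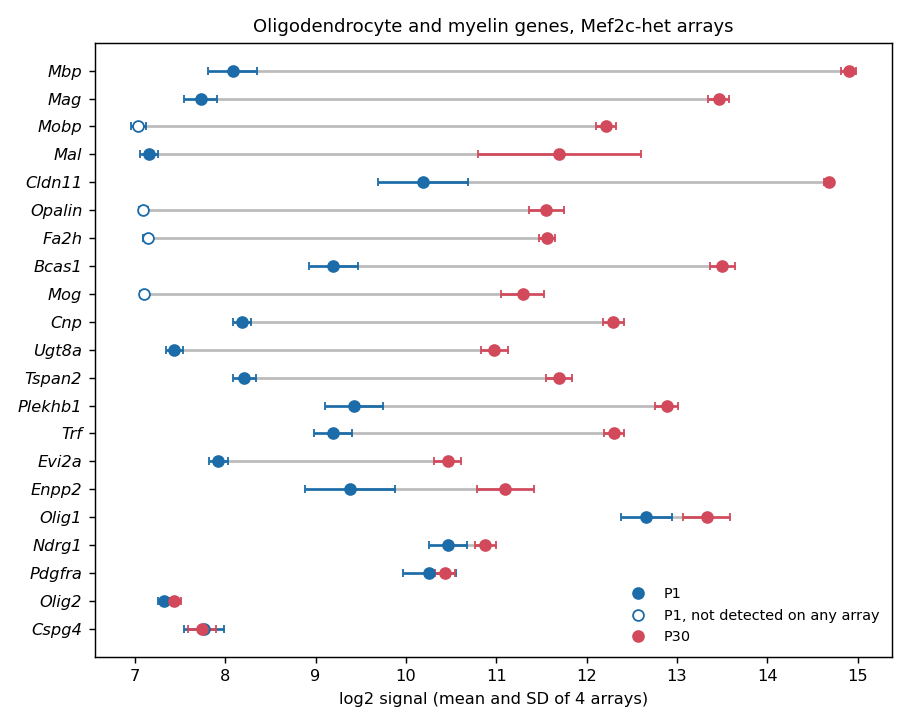
Log2 signal of 21 tested oligodendrocyte and myelin genes at P1 (blue) and P30 (red), as mean and SD of 4 Mef2c-het arrays each, sorted by the change. Open circles mark the 4 genes not detected on any P1 array, and the precursor genes Pdgfra, Olig2 and Cspg4 at the bottom overlap between the ages.

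Astrocyte genes rose with some exceptions. Of 24 genes 21 were tested, 16 were higher and 2 lower, with a median of 1.02. Ntsr2, a neurotensin receptor of astrocytes, read between 7.81 and 8.23 at P1 and between 12.16 and 12.42 at P30, a 20.8-fold rise (log2 fold change 4.38, SE 0.10). Gjb6, the gap junction protein connexin 30, rose by 3.76, and Slc1a2, the glutamate transporter GLT-1, by 3.02 on the probe used, a call given by 2 of its 3 probes. Clu, the secreted chaperone clusterin, rose by 2.01, Aqp4, the water channel of endfeet, by 1.62 and the intermediate filament gene Gfap by 0.80. Fabp7, a fatty acid carrier of radial glia, fell by 1.40 and Sox9, a glial lineage factor, by 0.49. Slc1a3, the glutamate transporter GLAST that radial glia already make, gave 0.17 and did not pass.

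Microglial genes rose as well. Of 24 genes 22 were tested, 19 were higher and 1 lower, with a median of 0.71. Selplg, the ligand of selectins, rose by 2.51 and was detected on 1 of 4 P1 arrays. Tmem119, a marker of resident microglia, read 7.55, 7.42, 7.47 and 7.38 at P1 and 8.88, 8.73, 8.83 and 8.91 at P30, a rise of 1.38 (SE 0.07). Csf1r, the receptor on which microglia depend, rose by 1.38, C1qa, of the complement cascade, by 0.92, P2ry12, the purine receptor of surveying microglia, by 0.91 and Cx3cr1, the fractalkine receptor, by 0.65. Spp1, osteopontin, known from microglia of developing white matter, was the gene that fell, by 0.63 (SE 0.24), with overlapping ages. With sex as a covariate that change was -0.29 with an adjusted p of 0.351.

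Interneuron markers of the adult hippocampus were among the large rises. Of 14 genes 11 were tested, 9 were higher and 1 lower, with a median of 1.42. Pvalb, the marker of fast-spiking basket cells, read 7.32, 7.09, 7.13 and 7.40 at P1, where 2 of 4 arrays detected it, and 12.14, 12.04, 12.05 and 12.30 at P30. The rise was 4.90 (SE 0.09), or 29.8-fold. Crhbp, a binding protein for corticotropin-releasing hormone, rose by 3.42 and the neuropeptide gene Vip by 2.72. Sst, the peptide of dendrite-targeting cells, rose by 1.47 and read 12.72 on P30 replicate 7 against 13.34 to 13.40 on the other 3. Npy rose by 0.67. Calb2, encoding calretinin, was the gene that fell, by 1.02.

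The labelled tissue was checked with genes of hippocampal subfields. Prox1 and C1ql2 of the dentate gyrus and Wfs1 and Fibcd1 of CA1 were all detected on the 4 P30 arrays. Their detection at P30 does not check the dissection at P1. Of 14 tested subfield genes 9 were higher at P30 and 4 lower, with a median of 0.51. C1ql2 read between 7.34 and 7.59 at P1 and between 12.31 and 12.69 at P30, a 31.6-fold rise, Wfs1 rose by 2.47 and Fibcd1 by 2.22. The granule cell factor Prox1 and the granule cell protein C1ql2 thus moved in opposite directions. Fezf2, a factor of young projection neurons, fell by 0.98. Dsp, encoding the desmosome protein desmoplakin and known as a dentate marker, was not detected at P1 and was at least 1.94-fold higher.

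Markers of neighbouring tissue were read from the same arrays, since a dissected hippocampus can carry some. Of 9 tested choroid plexus genes 3 were lower and 2 higher, and the summed signal of the list ranged from 2822 to 27826 at P1 and from 2784 to 5385 at P30. Ttr, the thyroid hormone carrier that choroid plexus secretes, read 14.35, 10.56, 14.53 and 12.61 at P1 and 11.91, 10.77, 10.16 and 10.85 at P30. The high values were those of P1 replicates 1 and 4, which are also the arrays with Xist signal, so carry-over of plexus and sex cannot be told apart there. The log2 fold change of Ttr was -2.10 (SE 0.78, adjusted p = 0.039), and it was -0.67 with an adjusted p of 0.359 with sex as a covariate. Clic6, a chloride channel protein of plexus, fell by 1.45 and lost its call in the same way, at an adjusted p of 0.0644, whereas Kl, the anti-ageing gene klotho that neurons also express, rose by 1.25. Zic1, of thalamus, septum and meninges, fell by 2.0 and read 11.08 on P1 replicate 1 against 9.41 to 10.02 on the other P1 arrays. Of 8 tested thalamus genes 4 were lower and 2 higher, with the nuclear receptor gene Rora at 1.33. Of 6 striatum genes 1 was lower and 3 higher, among them Ppp1r1b, encoding DARPP-32, at 1.40 and the tachykinin gene Tac1 at 1.42. Of 10 genes of meninges and fibroblasts 3 were lower, among them Igfbp2 at -1.65, and 2 higher, among them Mgp at 2.44. Of 12 endothelial genes 6 were lower, led by the tight junction gene Cldn5 at -1.55, and 3 higher, led by Ly6c1 at 1.94. None of the 4 tested blood genes was called, and the alpha globin gene Hba-a1 gave -0.29. The part of these tissues in the changes of other lists was not tested.

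The WT arrays showed closely similar changes with age, and no probe differed between the genotypes past the adjusted threshold. The fits of Mef2c-het and WT mice shared no array. Of 13770 probes tested in WT arrays 8337 were called (60.5%), 3916 higher (28.4%) and 4421 lower (32.1%). The 2-fold rule took 976 upward (7.09%) and 765 downward (5.56%), and the ages did not overlap for 7627 (55.4%). Of 9937 genes tested in both, 6269 were called in Mef2c-het and 6296 in WT arrays, and 5614 in both, which is 89.6% of the first and 89.2% of the second. All 5614 had the same direction. Of 1396 genes with a change of 2-fold or more in Mef2c-het arrays, 1386 were called in the same direction in WT arrays and 0 had a WT change of opposite sign. Across genes, which are not independent replicates, the log2 fold changes correlated at 0.982, and the first principal axis had a slope of 0.977. Mbp rose by 6.82 in Mef2c-het and 7.02 in WT arrays, Camk2a by 3.76 and 3.92, and Dcx fell by 4.60 and 4.54.

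**Figure D4:**
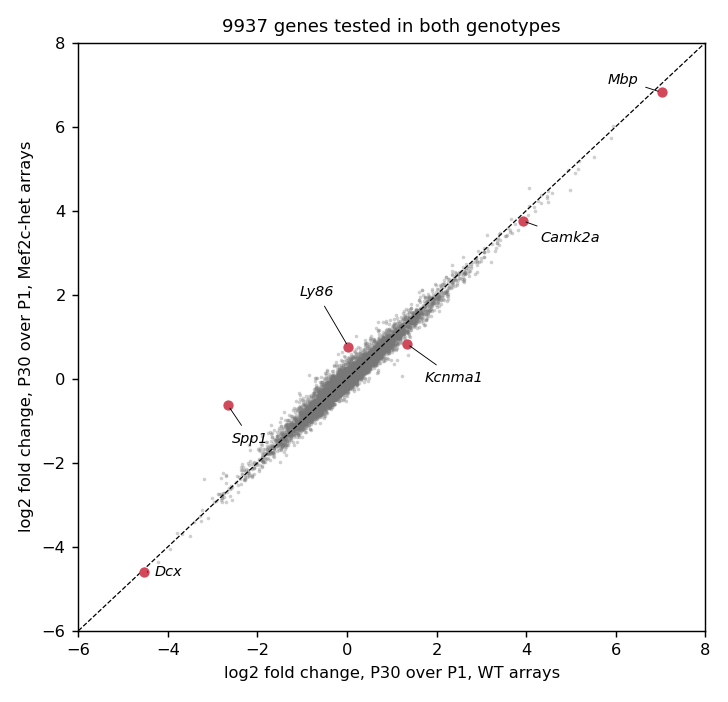
Log2 fold change, P30 over P1, of 9937 genes (dots) in Mef2c-het arrays against WT arrays, with the line of equal change dashed. Genes lie along the line, at a correlation of 0.982, and Spp1 lies farthest above it among the named ones, at -0.63 against -2.66.

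A test of the difference of the age change over all 16 arrays called 0 of 14777 probes (0.0%), with a smallest limma adjusted p of 0.998. At an unadjusted p under 0.05 there were 438 probes (2.96%), of which 179 (1.21%) had a higher change in Mef2c-het and 259 (1.75%) a lower one. That share lay below the 5.1% of unchanged probes that had such a p in the simulated data described below, so it is no surplus. The count of 438 rested on single arrays. It was 941 without Mef2c-het P30 replicate 7 and 741 without WT P1 replicate 8. It was 283 without Mef2c-het P30 replicate 6 and 288 without WT P1 replicate 4. It was 723 with the replicate number as a block, 683 with the array cluster as a block, 906 with no filter and 224 with median scaling. Among the WT arrays, P1 replicate 8 and P30 replicates 6 and 7 also had high background, with a 5th percentile of 140.0 to 158.4, and 3 of 4 read female at P1 and 0 of 4 at P30, beside 2 of 4 and 0 of 4 in Mef2c-het. Simulated data of the same size were made with noise independent between probes, unlike arrays that share a background. There the same test recovered 94% of probes given a true difference of 1 and 54% of those given 0.5. Differences of 0.5 or less could thus have been missed. On the real arrays larger ones could be missed as well, since Spp1, at a difference of 2.04 (SE 0.46), was not called. The recovery rates of the simulation may therefore not hold there. The median standard error of a difference was 0.120.

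The 5 genes with a higher and the 5 with a lower change in Mef2c-het of smallest p in that test are given as values, and none passed. Kcnma1, the calcium-activated BK potassium channel, went from 7.87 ± 0.08 to 8.70 ± 0.10 in Mef2c-het and from 7.72 ± 0.09 to 9.06 ± 0.13 (SD, n = 4) in WT arrays, a difference of -0.51 (SE 0.11, limma adjusted p = 0.998). The P30 mean of Kcnma1 was lower in Mef2c-het than in WT arrays. Ly86, a microglial partner of a Toll-like receptor, went from 8.52 ± 0.14 to 9.28 ± 0.19 in Mef2c-het and from 9.28 ± 0.23 to 9.31 ± 0.11 in WT arrays, a difference of 0.73 (SE 0.16). Spp1 started at 8.54 ± 0.52 in Mef2c-het and at 10.29 ± 0.66 in WT arrays and reached 7.91 ± 0.30 and 7.62 ± 0.54, a difference of 2.04 (SE 0.46). The P1 means of both microglial genes were lower in Mef2c-het than in WT arrays. Since the genes were picked by that test on these values, a gap between the genotypes at 1 age adds no support. Cyfip1, a translational repressor that binds FMRP, differed by -0.29 and Myl1, a myosin light chain, by -0.79. Pcgf6 differed by -0.37, Steap2 by -0.33, Dap by 0.49, Trim29 by 0.30 and 1 probe of Bex2 by 0.34.

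**Figure D5:**
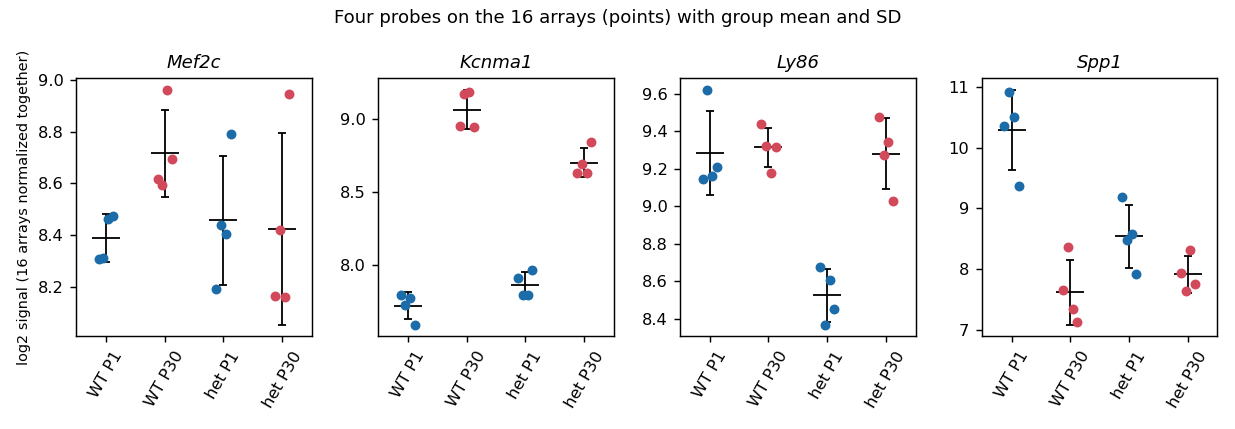
Log2 signal, normalised over 16 arrays, of a Mef2c probe, Kcnma1, Ly86 and Spp1 on WT and Mef2c-het (het) arrays at P1 (blue) and P30 (red), with points for arrays and the mean and SD of 4. Kcnma1 ends lower in Mef2c-het at P30, and Ly86 and Spp1 start lower in Mef2c-het at P1, and no difference of the age change passed the adjusted threshold.

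By list, the median difference between the genotypes ran from -0.17 to 0.31. For microglial genes the median difference was 0.31, and 7 of 22 genes had an unadjusted p under 0.05, beside a median of -0.01 and 322 of 10138 over all genes. The 7 were Spp1, Ly86, Tyrobp at 0.49, C1qb at 0.43, Trem2 and Cd68 at 0.37 and Laptm5 at 0.34. Spp1 and Ly86 had already been picked by the same test. The lists were chosen with earlier results of these data known, so this count is no independent support. For the 4 tested blood genes the median difference was 0.30 with 0 of 4 under that p, and the largest, 0.95, was that of the beta globin gene Hbb-b1. For interneuron genes it was 0.16 with 2 of 11, Calb2 at 0.24 and Tac1 at 0.35. The part of blood in the microglial values was not tested. C1qb rose by 1.13 in Mef2c-het and by 0.70 in WT arrays. For GABA receptor and chloride transport genes the median difference was -0.14, with 3 of 13 genes at an unadjusted limma p under 0.05. It was -0.12 for voltage-gated channels, with 2 of 20, and -0.10 for postsynaptic genes, with 3 of 27. For myelin genes it was -0.17, with 1 of 22, beside a median change of 3.83 in Mef2c-het and 3.94 in WT arrays. No list was tested as a whole.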

How the data were processed

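The series holds 16 bead arrays of hippocampal RNA, 1 per sample, of which the 8 Mef2c-het arrays were used, with the 8 WT arrays for the test between genotypes. RNA was extracted with Trizol and a miRNeasy column with DNase I and labelled as biotinylated cRNA, per the labels. The authors deposited for each probe a mean bead intensity before normalisation, the bead standard error, a bead count and a detection p-value, and per the labels' processing notes they used lumi and limma, whose versions are not given in the sources used here. These sources do not say either if local background was taken off. The lowest deposited intensity was 92.8, so no pseudocount was needed. The deposited bead counts had a median of 37 to 39 per array and probe, and the bead standard error a median of 3.46% to 4.05% of the signal. The number of arrays limits the precision, not the beads.

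Intensities were set to log2 and quantile normalised over the 8 arrays (R 4.3.3, limma 3.58.1). Probes with a detection p under 0.05 on 4 or more arrays were kept, so a probe could pass through 1 age alone. P30 was set against P1 with lmFit and eBayes, and p-values were adjusted after Benjamini and Hochberg over all probes tested. The difference of the age change was the interaction of genotype and age over 16 arrays normalised together. Probes were named through the Entrez gene number of the deposited table (16938 probes). Where that failed, the RefSeq accession (7418), the symbol (467) or a synonym of 1 gene alone (553) was used, with 25376 of 25697 matched. A gene is represented by its probe of highest mean signal, and disagreement of other probes is stated. Genes were named by rule: Mef2c, the 10 largest rises and the 10 largest falls among called genes whose ages do not overlap, the exemplars of each list with its 2 largest rises and 2 largest falls, the 5 higher and 5 lower genes of smallest p in the difference, the sex genes, and the cell cycle genes of smallest p for the promoters. Other members named beside them were chosen after their values were seen. A few genes are not reported here. Members and lists were chosen with earlier results of these data known. Promoter windows came from RefSeq, build GRCm38.p6, and 8047 tested genes had one, with chromosome 18 left out.

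In simulated data with the spread of these arrays, the fit of 13749 probes recovered 78% of changes of 0.5 and 98% of changes of 1 on the log2 scale, and 5.2% of unchanged probes had an unadjusted p under 0.05. Only 50 probes were changed at each size, and the noise was independent between probes. On the real arrays 59.7% of probes were called, so these rates may not hold there. The alternatives were cyclic loess, median scaling, normexp background correction, other detection filters, 1 probe per gene, a trended and robust variance, all 16 arrays fitted together, sex as a covariate, the array cluster as a block or left out, the replicate number as a block, and leaving out each array.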

Additional observations from a re-analysis of the deposited data

Results flagged for a closer look

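Each group of 4 arrays of a named gene was checked for an array that stood apart, by the gap to its nearest neighbour over the range of the group, against Dixon's critical value. This was exceeded in 21 of 312 groups, and chance flags about 1 in 20 groups, or 15.6 here. The arrays of higher background held 13 of the 21, with 8 on P30 replicate 7 and 5 on P1 replicate 8. Stmn1 was low on both of them, at 10.06 against 11.79 on the nearest P1 array (gap over range 0.864) and at 7.93 against 9.55 at P30 (0.878). Foxp1 was high on both, at 9.53 against 8.94 at P1 (0.834) and at 8.84 against 8.38 at P30 (0.974). Also on P1 replicate 8, Gap43 was low at 11.71 against 12.63 (0.843), Camk2a was high at 10.27 against 9.81 (0.902) and Npy was high at 10.97 against 10.71 (0.937). On P30 replicate 7, Sst was low at 12.72 against 13.34 (0.913), Cox8a low at 14.31 against 14.50 (0.922) and Dap low at 7.60 against 7.79 (0.854), while Col5a1 was high at 8.02 against 7.66 (0.985), Hdac7 high at 8.29 against 8.0 (0.91) and Cxadr high at 9.76 against 9.58 (0.933). The part of the background in these values was not tested.

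The other 8 lay on 5 arrays. At P1, Alas2 was high on replicate 1 at 8.19 against 7.82 (0.881), Tubb2b low on replicate 1 at 14.92 in a range of 0.08 (1.0) and Cldn5 low on replicate 2 at 11.77 against 11.91 (0.882). At P30, Akr1c19 was high on replicate 3 at 7.16 against 7.05 (0.894), where no array detected it. Ntsr2 was low on replicate 5 at 12.16 against 12.40 (0.944), and Myl1 was high there at 8.46 against 8.04 (0.884). Esam and Impact were low on replicate 6, at 9.56 against 9.76 (0.866) and at 12.75 against 12.86 (0.848).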

How the results depend on the processing

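Of 2876 values of 155 named genes under the alternatives, 2728 kept their direction and their side of the threshold, 121 lost the call, 10 gained it and 17 changed sign, all 17 in Alas2, Ccl9 and Rpl3, which were not called. Calls near the threshold were those most often lost. Spp1 lost it in 13 alternatives, Dap in 12, Neurod1 and Sdhc in 11, Ttr and Ccne1 in 10, Cyfip1 in 9 and Clic6, Grik1 and Tcf7l2 in 6. With sex as a covariate 19 named genes lost it. Probes called numbered 2879 to 4217 higher and 3451 to 5028 lower over the 19 alternatives, and 3252 to 3764 and 3884 to 4491 with 1 array left out. With normexp correction, which stretches the scale of dim probes, 1687 probes were higher and 1584 lower by 2-fold or more, against 883 to 974 and 689 to 780 with 1 array left out. No probe of the difference between genotypes was called in any of the 27 alternatives. Its probes of unadjusted p under 0.05 numbered 224 with median scaling, 683 with the array cluster as a block, 906 with no filter, and 283 to 941 with 1 array left out, the highest without Mef2c-het P30 replicate 7, then 741 without WT P1 replicate 8, and the lowest 283 without Mef2c-het P30 replicate 6 and 288 without WT P1 replicate 4. With the replicate number as a block the count was 723 and no probe was called. No paired analysis was possible because the Mef2c-het arrays of the 2 ages share no replicate number, so for P30 against P1 there is no such block.

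The change of Mef2c was near 0 and its sign was not stable. It was 0.024 for ILMN_2887992 and 0.0090 for ILMN_2732465 with cyclic loess, and -0.21 to 0.079 and -0.21 to 0.12 with 1 array left out. Alas2 gave 0.073 with sex as a covariate and -0.068 to 0.077 with 1 array left out. Ccl9 gave -0.0033 with cyclic loess, -0.024 with median scaling, -0.072 without the arrays of higher background and -0.062 to 0.062 with 1 array left out. Rpl3 gave -0.054 with cyclic loess, -0.10 with median scaling, -0.0049 with sex and -0.035 to 0.070 with 1 array left out.

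The medians of the lists kept their sign in each setting but leave-one-out, where that of brain matrix ranged from -0.040 to 0.21. With normexp they were -2.59 for cell cycle, -1.28 for progenitor, -1.19 for immature neuron, 1.39 for synaptic vesicle, 1.44 for postsynaptic, 0.88 for glutamate receptor, 1.00 for GABA, 1.51 for channel, 1.64 for activity-regulated, 0.14 for MEF2, -1.28 for imprinted, 4.64 for oligodendrocyte, 1.44 for astrocyte, 1.16 for microglia, 0.80 for subfield, -0.62 for endothelium, -1.80 for choroid plexus, -0.54 for thalamus and 0.38 for striatum genes. With a detection p under 0.01 they were -1.22 for immature neuron, 0.84 for GABA, -1.0 for imprinted, 4.11 for oligodendrocyte, 1.16 for astrocyte and 0.76 for subfield genes. With cyclic loess they were -1.23 for cell cycle, 0.23 for oxidative phosphorylation and -0.63 for ribosomal genes. With sex they were 0.97 for synaptic vesicle, 0.23 for oxidative phosphorylation, -0.37 for cholesterol and -0.20 for choroid plexus genes. Without the arrays of higher background they were -1.44 for cell cycle, -0.86 for progenitor, -1.01 for immature neuron, 1.10 for postsynaptic, 1.42 for activity-regulated, 0.16 for MEF2, -1.09 for imprinted, 3.55 for oligodendrocyte and 1.38 for astrocyte genes.

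With 1 array left out, the medians ranged from -1.49 to -1.28 for cell cycle, -0.92 to -0.69 for progenitor, -1.18 to -0.97 for immature neuron, 0.81 to 1.09 for postsynaptic, 0.42 to 0.53 for glutamate receptor, 0.51 to 0.75 for GABA, 1.08 to 1.38 for activity-regulated, 0.036 to 0.16 for MEF2, -1.09 to -0.58 for imprinted, 0.14 to 0.21 for oxidative phosphorylation, -0.71 to -0.65 for ribosomal, 3.43 to 3.87 for oligodendrocyte, 1.01 to 1.29 for astrocyte, 0.32 to 0.61 for subfield and -1.04 to -0.23 for choroid plexus genes. The highest of choroid plexus came without P1 replicate 1. For the other moves the cause was not tested. Changes of probes near background are limited by the dim end of the scale.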

Other observations

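A further 6 groups of genes were read after the data had been seen, and are given as values with no test of the group. Chromatin and nuclear architecture genes were mostly lower at P30, with 14 lower and 1 higher of 18 tested and a median log2 fold change of -0.56. Ezh2, the histone H3 lysine 27 methyltransferase of progenitors, fell by 1.78 and Hmgb2, a chromatin protein of dividing cells, by 1.73, while Lmna, the lamin of mature nuclei, rose by 0.42. Of 9 DNA methylation genes 5 were lower and none higher. Uhrf1, which brings Dnmt1 to replicated DNA, fell by 2.62 and Dnmt1 and Dnmt3b had log2 fold changes of -1.11 and -1.1. Of 16 splicing regulators 5 were higher and 7 lower. Mbnl2 rose by 2.50 and Rbfox3, known as NeuN, by 1.13, and Ptbp1, the repressor of neuronal exons, fell by 1.43, as did Celf2, by 1.46.

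Glycolytic genes were higher, with 13 of 16 tested passing upward, 2 downward and a median of 1.06. Pfkp rose by 2.88, Eno2, the neuronal enolase, by 2.58 and Aldoa by 2.38. Hk2, a hexokinase of dividing cells, fell by 0.91 and Ldha by 0.29. Among 9 neurotrophin and receptor genes 5 were higher and 1 lower. Sorcs3 rose by 1.55, Sort1 by 1.52 and Ntrk2, the receptor TrkB, by 1.27, and Ngfr, the receptor p75, fell by 0.30. Of 11 genes of antigen presentation and interferon response 8 were higher and none lower, with Ifi27 at 2.36 and B2m, the light chain of MHC class I, at 1.14. These shares stood beside 28.3% of all genes called higher and 34.0% called lower.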
